A study of Mus musculus with 12 samples.

Results

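The tricarboxylic acid (TCA) cycle and mitochondrial fatty acid oxidation were followed through 34 genes, chosen by symbol as a fixed list of enzymes and carriers and matched to the Ensembl identifiers of the deposited counts. All 34 were among the 18438 genes that passed the filter on low counts, of 56748 identifiers in the files. They hold the catalytic genes of the pyruvate dehydrogenase complex and most of the TCA cycle (17 genes), and the carnitine shuttle, beta-oxidation enzymes and electron transfer flavoproteins (17 genes). Expression was measured by bulk RNA-seq in Lin-Sca+Kit+ (LSK) cells, the part of bone marrow (BM) that holds stem cells and their early progeny.

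The donor cells (CD45.2) came from SCLtTA/BCR-ABL double transgenic (DTG) mice, in which the Scl enhancer directs a tetracycline-controlled transactivator to stem and progenitor cells and tetracycline (TET) keeps human BCR::ABL1 off. Frozen BM pooled from several DTG mice of both sexes was given to irradiated B6.SJL recipients (CD45.1) aged 8 to 12 weeks, which received 2 doses of 4.25 Gy. In the BCR::ABL1+ group (labelled CML 2wk, n = 6) TET was taken out of the drinking water for 2 weeks after engraftment, whereas the BCR::ABL1- group (labelled CTRL, n = 6) stayed on TET. Both groups therefore carry both transgenes, and they differ in TET as well as in BCR::ABL1. The study names cohorts of 6 mice, but no label ties a library to a mouse, so p-values measure the spread between these libraries.

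The TCA cycle oxidises acetyl-CoA to carbon dioxide in the mitochondrial matrix and hands the electrons to the respiratory chain as NADH and reduced flavin. Acetyl-CoA reaches it from pyruvate through the pyruvate dehydrogenase complex, or from fatty acids, which enter the matrix as carnitine esters and are shortened in repeated rounds of dehydrogenation, hydration, dehydrogenation and thiolysis. Haemopoietic stem cells are known for low mitochondrial respiration when quiescent, and both routes have been studied in leukaemic stem cells.

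The depth per library, as summed counts on genes, was about 22804800 to 41832900 for BCR::ABL1- and about 16150800 to 25070100 for BCR::ABL1+, and no member had fewer than 204 counts in any library. The sorting gate genes Kit, Ly6a and Ptprc were detected, as were Cd34, Flt3, Slamf1 and Cd48, which were not sorted on. Of these 7 genes 4 were lower and 2 higher in BCR::ABL1+ at an adjusted p under 0.05 by edgeR. Of all genes tested 59.5% were called, 30.6% higher and 29% lower, and these shares also serve for the marker lists below. Levels are given as counts scaled to a common library size (CPM, with TMM factors). Kit, the stem cell factor receptor, was at 681 to 800.0 CPM (median 745) in BCR::ABL1- against 323 to 522 CPM (median 418) in BCR::ABL1+. Several features moved with the groups and their part in the results was not tested, except where a value is given for it. Mitochondrially encoded mRNAs took 0.769% to 1.2% of counts in BCR::ABL1- and 2.19% to 2.85% in BCR::ABL1+. Summed CPM of 6 cycling markers ranged over 3183 to 3864 in BCR::ABL1- and over 1863 to 2428 in BCR::ABL1+, and 3 of the 6 were called higher and 3 lower. Summed erythroid markers (6 of 6 lower) went from 84.3-161 to 9.6-35.3 CPM, and summed mast cell and basophil markers (3 of 5 higher) from 75.6-153 to 247-1279 CPM. The monocyte and macrophage list (2 of 5 higher) summed to 157-201 and 320-671 CPM. The megakaryocyte list (3 of 4 lower, 1 not tested) summed to 219-255 and 77.8-244 CPM, and the neutrophil list (4 of 5 lower) to 105-2356 and 74.4-348 CPM. The B cell (1 of 5 lower) and T and NK cell (1 higher and 1 lower of 5) lists stayed under 190 CPM in every library. Stromal markers (3 of 6 higher) reached 743 CPM in BCR::ABL1+ replicate 2 and 296 in replicate 4, against at most 100.2 elsewhere. Markers of adipocytes, the cells that store fatty acids as triglyceride, summed to under 1 CPM in every library, and Lep was at 0 in all 12. The labels name 1 sex per group, male for BCR::ABL1- and female for BCR::ABL1+, so sex as labelled cannot be told apart from BCR::ABL1. Xist was counted in every library of both groups. It lay at 3794 to 4425 CPM (median 4015) in the libraries labelled male and at 2183 to 3502 CPM in those labelled female. The groups did not overlap, with the libraries labelled male higher. In these the 4 Y-linked genes each stayed under 0.7 CPM, so the labelled sex did not match the sequenced donor cells of that group. In the group labelled female, replicate 2, the library highest in stromal markers, had Ddx3y at 8.64, Uty at 6.08, Eif2s3y at 4.11 and Kdm5d at 3.94 CPM, replicate 4 had up to 1.14 CPM, and the others stayed under 0.1 CPM. In bulk RNA, more cells of a type and more RNA per cell cannot be told apart.

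The 34 genes moved upwards on balance in BCR::ABL1+ cells, and they did so unevenly. By edgeR's quasi-likelihood test, 17 of 34 were higher, 4 were lower and 13 were not called at an adjusted p under 0.05. Across all genes tested 59.5% were called, 30.6% higher and 29% lower. Counting only genes at or above the level of the lowest member, 74.7% were called, 29.7% higher and 44.9% lower. The median log2 fold change of the members was 0.25, against 0.067 over all genes tested, and values ran from -0.72 for Cpt1a to 1.37 for Echs1. The 12 libraries separated completely, with no overlap between groups, for 20 members (16 higher and 4 lower), where 37.6% of all genes tested did so. This share includes genes far below the members in level. It was not computed for genes at or above the level of the lowest member. Together the members took 0.307% to 0.343% of counts in BCR::ABL1- and 0.368% to 0.425% in BCR::ABL1+. Both pathways were close: 9 of 17 TCA cycle and pyruvate dehydrogenase genes were higher and 1 lower (median 0.26), and 8 of 17 fatty acid oxidation genes were higher and 3 lower (median 0.24).

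**Figure D1:**
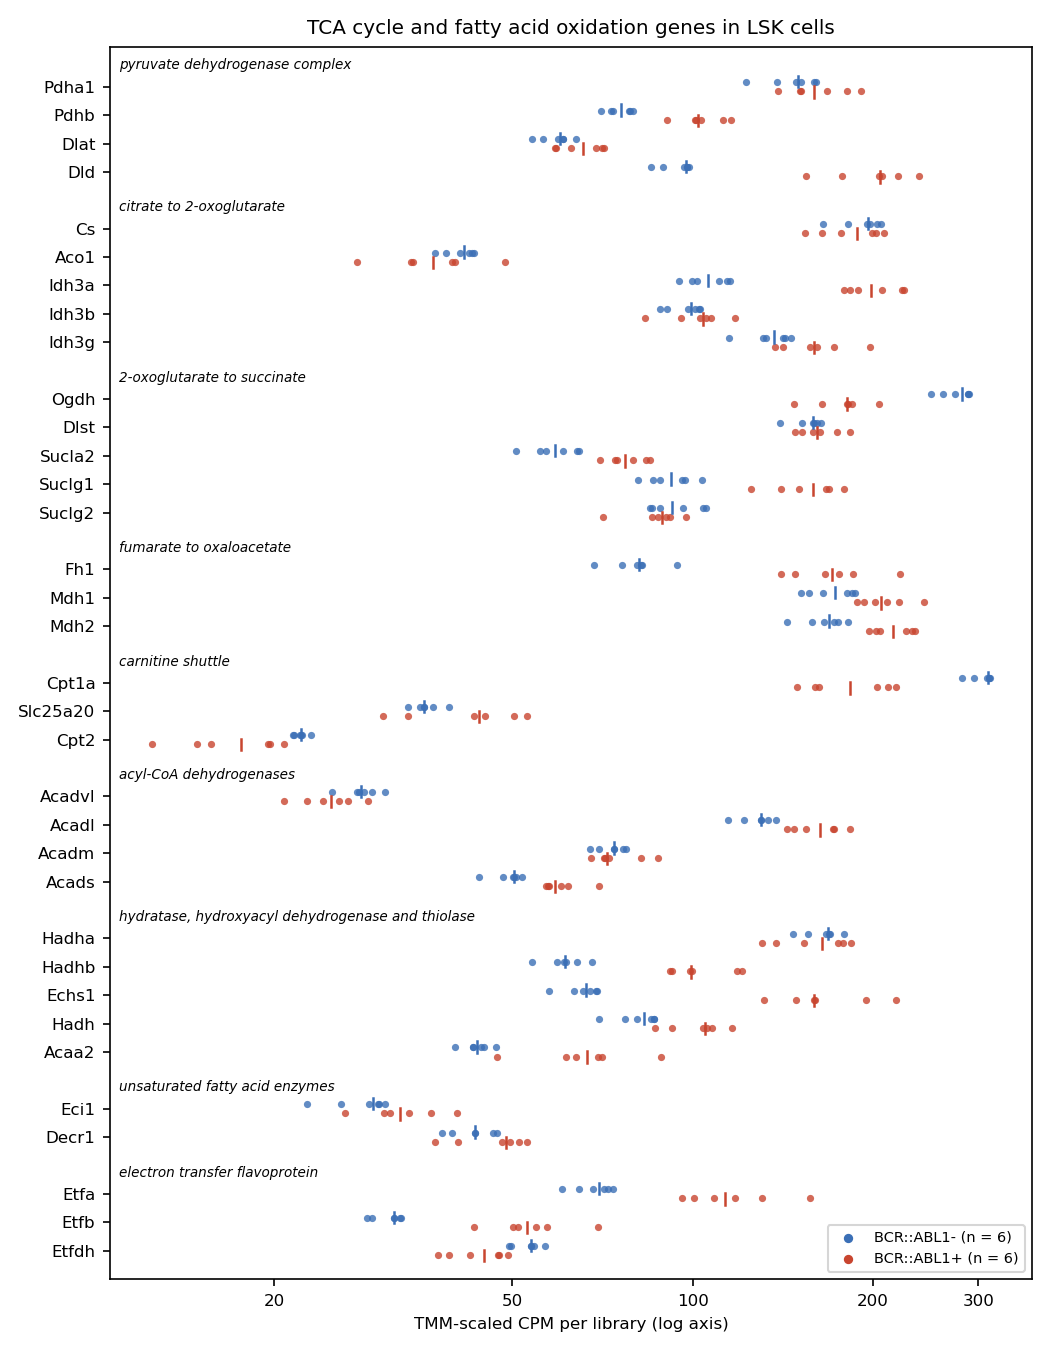
TMM-scaled CPM (log axis) of each of the 34 genes in each library, grouped by step, with a point per library and a line at the group median (n = 6 per group). For Echs1, Fh1, Dld and Idh3a all BCR::ABL1+ points lie to the right of all BCR::ABL1- points, and for Cpt1a and Ogdh all lie to the left.

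Most changes were moderate: 3 members rose more than 2-fold (Echs1, Fh1 and Dld), and none fell by as much as 2-fold. Compared per kilobase of transcript, the highest levels in BCR::ABL1- were those of Mdh2 (median 116 CPM per kb), Idh3g (103) and Mdh1 (81.6), followed by Cpt1a (72.1). The largest moves in the order were those of Cpt1a, which went from rank 4 to rank 21 of 34 at 42.4 CPM per kb, of Ogdh, which went from rank 5 (68.2 CPM per kb) to rank 20 (43.9), and of Echs1, which went from rank 16 (42.7 CPM per kb) to rank 4 (103). The lowest ranks, held by Aco1, Acadvl and Cpt2, were the same 3 genes in both groups.

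To show what the promoters of the leading genes look like, 4 windows are printed from RefSeq (build GRCm38.p6), each running from 250 bases before to 50 bases after the start, 5′ to 3′ on the strand of the gene. Hadhb is shown because it shares its promoter with Hadha, Cpt2 because it holds more than 1 searched motif, and Echs1 and Cpt1a because they had the largest rise and fall. Capitals mark a match to STAT (TTCNNNGAA) or ETS (CCGGAAGT) on either strand, and Echs1 and Cpt1a hold no match to any searched motif.
Hadhb, chr5:30155003-30155302, plus strand: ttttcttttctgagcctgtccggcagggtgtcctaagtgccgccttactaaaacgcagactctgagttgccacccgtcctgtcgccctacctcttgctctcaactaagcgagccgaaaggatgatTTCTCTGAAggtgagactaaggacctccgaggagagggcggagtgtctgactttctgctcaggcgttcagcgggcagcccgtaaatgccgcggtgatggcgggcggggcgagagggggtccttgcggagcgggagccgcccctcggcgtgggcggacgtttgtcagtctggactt
Cpt2, chr4:107923540-107923839, minus strand: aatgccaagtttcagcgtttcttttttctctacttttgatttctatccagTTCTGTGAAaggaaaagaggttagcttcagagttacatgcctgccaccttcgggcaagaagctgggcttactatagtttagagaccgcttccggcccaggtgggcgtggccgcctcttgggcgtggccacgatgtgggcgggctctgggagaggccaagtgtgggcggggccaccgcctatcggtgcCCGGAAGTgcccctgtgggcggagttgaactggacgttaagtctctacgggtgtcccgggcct
Echs1, chr7:140116372-140116671, minus strand: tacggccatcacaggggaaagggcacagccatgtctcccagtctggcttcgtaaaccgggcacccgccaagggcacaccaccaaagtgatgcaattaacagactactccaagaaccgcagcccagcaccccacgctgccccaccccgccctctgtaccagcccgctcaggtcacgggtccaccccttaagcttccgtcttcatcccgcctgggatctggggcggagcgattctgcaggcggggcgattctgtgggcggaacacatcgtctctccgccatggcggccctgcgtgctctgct
Cpt1a, chr19:3323051-3323350, plus strand: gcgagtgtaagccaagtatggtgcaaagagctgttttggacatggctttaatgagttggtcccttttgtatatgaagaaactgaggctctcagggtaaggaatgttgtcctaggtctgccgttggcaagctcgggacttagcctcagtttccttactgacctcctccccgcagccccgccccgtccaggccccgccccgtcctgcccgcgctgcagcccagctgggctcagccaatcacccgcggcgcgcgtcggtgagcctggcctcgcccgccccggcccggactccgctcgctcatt

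Promoter windows were found for 31 of the 34 genes, and 6 motifs were searched in them on both strands, next to the first listed window of 27025 genes of the table, which include non-coding genes. STAT (TTCNNNGAA) was in 3 of 31 (9.68%, against 8.47% of all): Cpt2, Hadha and Hadhb, of which the last 2 are the same site, since their windows overlap by 228 bases. ETS (CCGGAAGT) was in 3 (Cpt2, Dlst and Slc25a20; 9.68%, against 4% of all), and NRF1 (GCGCATGCG) in 2 (Acadm and Etfdh; 6.45%, against 1.81%). The PPAR repeat (AGGTCAAAG) was in 1 (Sucla2; 3.23%, against 0.414%). No window of the 31 held the estrogen-related receptor motif TCAAGGTCA (0.407% of all), which shares the letters AGGTCA with the PPAR repeat, or the E-box CACGTG (7.24% of all). Of the 8 genes with a match, Sucla2 and Hadhb were higher, Cpt2 and Etfdh were lower and the other 4 were not called.

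The pyruvate dehydrogenase complex, which turns pyruvate into acetyl-CoA, was higher in its E3 component and in the beta subunit of E1. Dld, the E3 dihydrolipoamide dehydrogenase that also serves the 2-oxoglutarate complex (identifier ENSMUSG00000020664), ranged over 85.2 to 98.6 CPM (median 97.3) in BCR::ABL1- libraries and over 154 to 239 CPM (median 206) in BCR::ABL1+ libraries. Its log2 fold change was 1.09 (SE 0.0924, adjusted p = 2.59e-07), and every BCR::ABL1+ library lay above every BCR::ABL1- library. Pdhb, the beta subunit of the E1 enzyme, lay at 70.3 to 79.5 CPM (median 76) in BCR::ABL1- and at 90.5 to 116 CPM (median 102) in BCR::ABL1+ (log2 fold change 0.46, SE 0.0641, adjusted p = 2.24e-05), again without overlap. The E1 alpha subunit Pdha1 (log2 fold change 0.16, adjusted p = 0.14) and the E2 acetyltransferase Dlat (0.14, adjusted p = 0.0832) were not called, and their groups overlapped.

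From citrate to 2-oxoglutarate, the rise was found in isocitrate dehydrogenase 3, the NAD-dependent enzyme of the cycle. Its catalytic subunit gene Idh3a (ENSMUSG00000032279) lay at 94.9 to 115 CPM (median 106) in BCR::ABL1- and at 179 to 225 CPM (median 198) in BCR::ABL1+ (log2 fold change 0.92, SE 0.0762, adjusted p = 2.04e-07), so the groups did not overlap. The regulatory subunit gene Idh3g, which is X-linked, changed less, at 115 to 146 CPM (median 137) in BCR::ABL1- and at 137 to 198 CPM (median 159) in BCR::ABL1+ with overlapping groups (log2 fold change 0.26, SE 0.0885, adjusted p = 0.0209). That call was lost in 4 of the alternatives, including the one without BCR::ABL1- replicate 2 (0.21, adjusted p = 0.0541). Citrate synthase Cs (-0.055), which opens the cycle, the cytosolic aconitase Aco1 (-0.13) and the third subunit Idh3b (0.069) were not called. 

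Between 2-oxoglutarate and succinate, neighbouring genes moved in opposite directions. Ogdh, the E1 enzyme of the 2-oxoglutarate dehydrogenase complex (ENSMUSG00000020456), lay at 250.0 to 290.1 CPM (median 281) in BCR::ABL1- and at 148 to 205 CPM (median 181) in BCR::ABL1+. It fell by 0.64 on the log2 scale (SE 0.0758, adjusted p = 5.45e-06), and no BCR::ABL1+ library reached the lowest BCR::ABL1- library. Its partner E2 gene Dlst was not called (0.067), and the E3 gene Dld rose, as given above. Succinyl-CoA ligase, which makes succinate with ATP or GTP, rose in its shared alpha subunit Suclg1, at 81.1 to 104 CPM (median 92) in BCR::ABL1- and at 125 to 179 CPM (median 159) in BCR::ABL1+ (log2 fold change 0.75, SE 0.0892, adjusted p = 5.08e-06). Of the 2 alternative beta subunits, the ATP-forming Sucla2 was higher (0.40, adjusted p = 0.000189) and the GTP-forming Suclg2 was not called (-0.11, adjusted p = 0.267).

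The 3 genes from fumarate to oxaloacetate were all called higher, although Mdh2 lost its call once the trend on transcript length, described further on, was removed (0.16, adjusted p = 0.0832). Fumarase Fh1 (ENSMUSG00000026526), which hydrates fumarate to malate, lay at 68.4 to 94 CPM (median 81.4) in BCR::ABL1- and at 140.3 to 222 CPM (median 171) in BCR::ABL1+, with a log2 fold change of 1.10 (SE 0.106, adjusted p = 7.11e-07). The mitochondrial malate dehydrogenase Mdh2 lay at 144 to 182 CPM (median 169) in BCR::ABL1- and at 197 to 235 CPM (median 216) in BCR::ABL1+ (log2 fold change 0.38, SE 0.0698, adjusted p = 0.000267). Its cytosolic counterpart Mdh1, part of the malate-aspartate shuttle, had a log2 fold change of 0.30 (SE 0.0764, adjusted p = 0.00393). None of the 3 overlapped between groups.

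Of the 3 genes of the carnitine shuttle, which carries fatty acids into mitochondria, 2 were lower and 1 was not called. Cpt1a (ENSMUSG00000024900), the carnitine palmitoyltransferase of the outer membrane that commits long-chain fatty acids to oxidation, lay at 282 to 314 CPM (median 311) in BCR::ABL1- and at 149.7 to 219 CPM (median 183) in BCR::ABL1+. The log2 fold change was -0.72 (SE 0.094, adjusted p = 1.24e-05), the largest fall among the 34 genes, and every BCR::ABL1+ library lay below every BCR::ABL1- library. Cpt2, the inner-membrane enzyme that returns the acyl group to CoA, was low and fell, lying at 21.5 to 23 CPM (median 22.2) in BCR::ABL1- and at 12.5 to 20.8 CPM (median 17.6) in BCR::ABL1+ (log2 fold change -0.36, SE 0.113, adjusted p = 0.0124), also without overlap. The carnitine-acylcarnitine carrier Slc25a20, which links these 2 enzymes, was not called (0.24, adjusted p = 0.0957).

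Among the acyl-CoA dehydrogenases, which open each round of beta-oxidation and differ in the chain length they accept, 2 of 4 were called, both higher. Acadl, for long chains, lay at 115 to 138 CPM (median 130.3) in BCR::ABL1- and at 144 to 183 CPM (median 163) in BCR::ABL1+ (log2 fold change 0.34, SE 0.0711, adjusted p = 0.000807), and Acads, for short chains, at 43.9 to 51.9 CPM (median 50.3) in BCR::ABL1- and at 57 to 69.7 CPM (median 58.8) in BCR::ABL1+ (0.30, SE 0.064, adjusted p = 0.000977). Acadvl for very long chains (-0.18, adjusted p = 0.0757) and Acadm for medium chains (0.042, adjusted p = 0.611) were not called.

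The later steps of beta-oxidation held the largest rise of the list. Echs1 (ENSMUSG00000025465), the short-chain enoyl-CoA hydratase, ranged over 57.5 to 69.2 CPM (median 66.5) in BCR::ABL1- and over 132 to 218 CPM (median 159.7) in BCR::ABL1+, and its log2 fold change was 1.37 (SE 0.107, adjusted p = 1.37e-07). Hadhb, the thiolase subunit of the mitochondrial trifunctional protein for long chains, rose, lying at 54 to 68 CPM (median 61.2) in BCR::ABL1- and at 91.8 to 121 CPM (median 99.3) in BCR::ABL1+ (log2 fold change 0.76, SE 0.0818, adjusted p = 2.12e-06). Hadha, the subunit of the same protein with hydratase and dehydrogenase activity, lay at 147 to 179 CPM (median 168) and 131 to 184 CPM (median 164) and was not called (-0.043, adjusted p = 0.695). The short-chain hydroxyacyl dehydrogenase Hadh (0.34, SE 0.0776, adjusted p = 0.00177) and the thiolase Acaa2 (0.61, SE 0.112, adjusted p = 0.000274) were higher as log2 fold changes. The groups of Echs1, Hadhb, Hadh and Acaa2 did not overlap, although for Hadh and Acaa2 the lowest BCR::ABL1+ library (replicate 5 for both) came within 0.3 CPM of the highest BCR::ABL1- library. The 2 auxiliary enzymes for unsaturated fatty acids were not called: Eci1, a double-bond isomerase, lay at 22.7 to 30.7 CPM (median 29.3) and 26.2 to 40.4 CPM (median 32.4), with a log2 fold change of 0.24, SE 0.105, adjusted p = 0.059, and the reductase Decr1 at 38.2 to 47.1 CPM (median 43.3) and 37.2 to 52.8 CPM (median 48.8), with one of 0.11, SE 0.0908, adjusted p = 0.298.

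Electrons from the acyl-CoA dehydrogenases pass to the electron transfer flavoprotein, whose 2 subunits rose while its ubiquinone oxidoreductase fell. Etfb lay at 28.5 to 32.5 CPM (median 31.7) in BCR::ABL1- and at 43.2 to 69.4 CPM (median 52.9) in BCR::ABL1+ (log2 fold change 0.81, SE 0.0946, adjusted p = 4.67e-06) and Etfa at 60.5 to 73.6 CPM (median 69.6) in BCR::ABL1- and at 96.2 to 157 CPM (median 113) in BCR::ABL1+ (0.79, SE 0.107, adjusted p = 1.69e-05). Etfdh, which passes the electrons on to ubiquinone, fell with a log2 fold change of -0.27 (SE 0.0744, adjusted p = 0.0057). All 3 were without overlap, and the nearest approach was that of Etfdh, at 49.4 CPM in the lowest BCR::ABL1- and 49.3 CPM in the highest BCR::ABL1+ library.

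**Figure D2:**
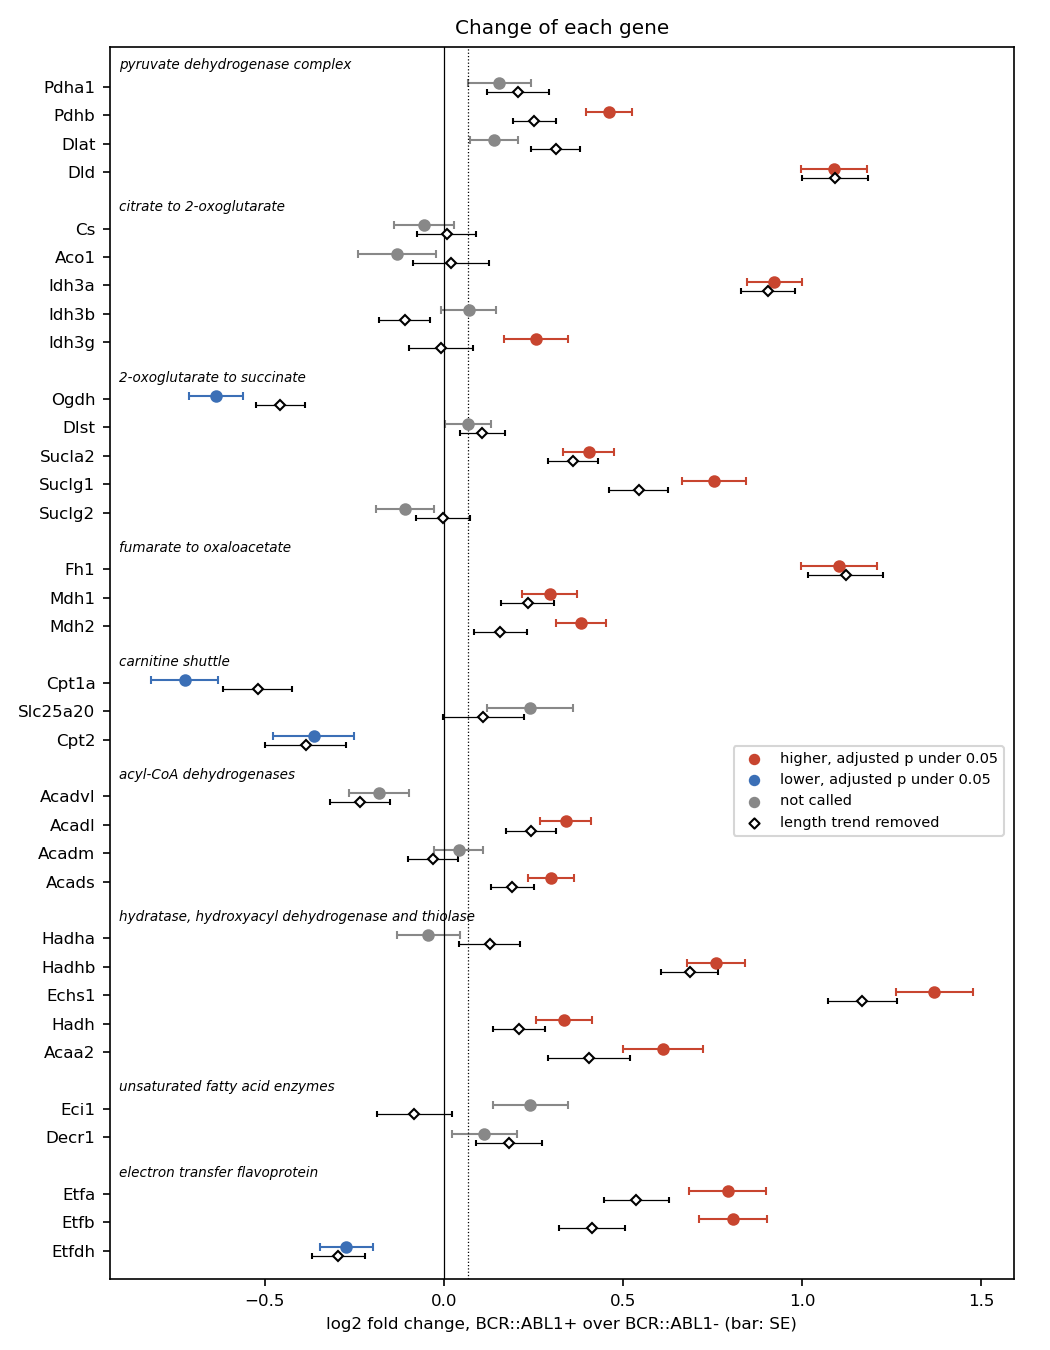
log2 fold change (BCR::ABL1+ over BCR::ABL1-) of each gene with its standard error, filled circles from edgeR on the counts (red higher, blue lower, grey not called) and open diamonds after removal of the length trend, with a dotted line at the median of all genes tested (0.067). Echs1, Fh1, Dld and Idh3a lie furthest to the right and Cpt1a and Ogdh furthest to the left by either value, and Idh3g moves to zero once the length trend is removed.

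Transcript length moved with the result. Over the 34 genes the Spearman coefficient of log2 fold change with transcript length was -0.555, and over the 8029 genes at or above the level of the lowest member it was -0.42 (genes share the same 12 libraries and are no replicates). Genes were divided by length into 3 sets of about equal size. Of 2679 genes in the shortest set (up to 2.49 kb), 50.5% were higher and 23.5% lower with a median log2 fold change of 0.24. The 22 members in that range had 15 higher (68.2%) and 2 lower (9.09%) with a median of 0.34. In the middle set (2.49 to 4.2 kb), 25.7% of 2673 genes were higher and 47.8% lower (median -0.17), and of 11 members 2 were higher and 1 lower (median 0.067). Cpt1a, with 4.32 kb, was the single member in the longest set, where 63.5% of 2677 genes were lower (median -0.35).

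A fit chosen after seeing the data removed the trend on length from each library. It left 16 members higher and 5 lower, 19 of them shared with the 21 called before, and the median of the members at 0.19, against 28.4% higher and 26.8% lower and a median of 0.037 over 17803 genes with a length. Idh3g (-0.0078, adjusted p = 0.947) and Mdh2 (0.16, adjusted p = 0.0832) lost their calls, while Dlat (0.31, adjusted p = 0.0012) and Acadvl (-0.23, adjusted p = 0.0281) gained one. Of the genes named above, Echs1 stood at 1.17, Fh1 at 1.12, Dld at 1.09, Idh3a at 0.90, Cpt1a at -0.52 and Ogdh at -0.46, each a shift of less than 1.5 times. The rises of Etfb (0.41), Pdhb (0.25), Acads (0.19), Hadh (0.21) and Acaa2 (0.41) shrank by more than 1.5 times and kept their calls.

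**Figure D3:**
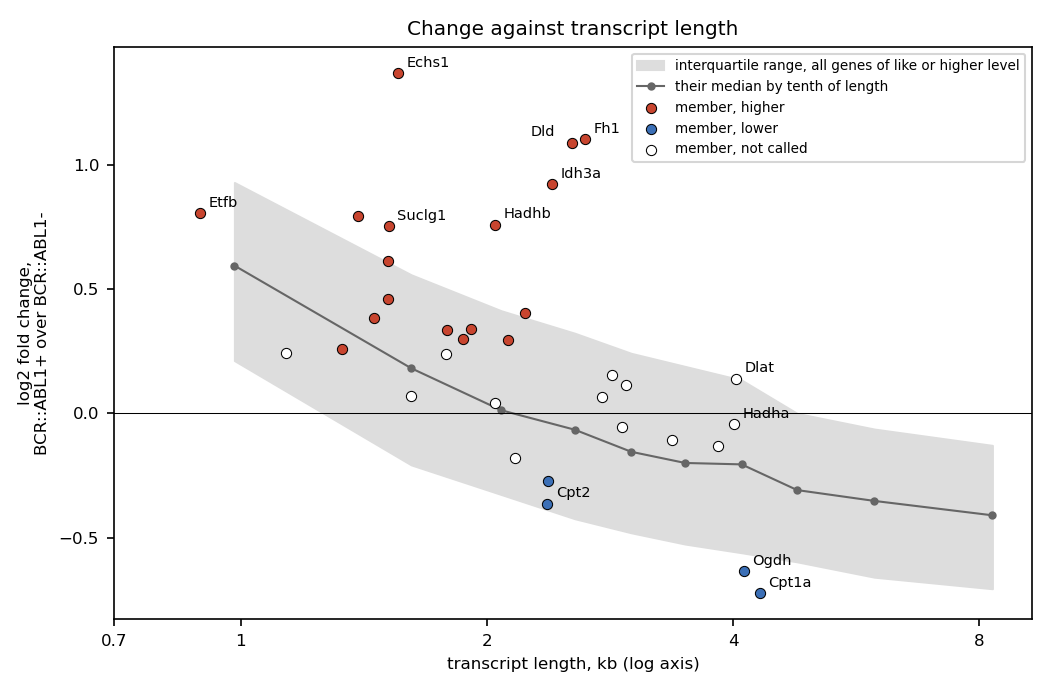
log2 fold change (BCR::ABL1+ over BCR::ABL1-) of the 34 genes against transcript length in kb (log axis), over the median (line) and interquartile range (grey) of all genes at or above the level of the lowest member, in 10 length bins of about equal size. The line descends from 0.59 in the shortest bin to -0.41 in the longest, with Echs1, Fh1, Dld, Idh3a and Hadhb among the genes above the grey band and Ogdh and Cpt1a below it.

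Ratios of 2 genes within a library do not depend on how libraries are scaled, so 10 pairs of subunits or sister enzymes were compared by a two-sided exact permutation test over all assignments of the libraries to groups of 6, with p adjusted over the 10. An unequal ratio does not tell which of the 2 genes moved. The ratio of Hadha to Hadhb counts was 2.5 to 2.79 (median 2.72) in BCR::ABL1- and 1.31 to 1.92 (median 1.53) in BCR::ABL1+, a difference of -0.81 on the log2 scale (adjusted p = 0.00309, exact permutation). These 2 genes lie on opposite strands, and their promoter windows overlap by 228 bases, in the window printed above for Hadhb. The ratio of the succinyl-CoA ligase beta subunits, Suclg2 to Sucla2, was 1.5 to 1.71 (median 1.59) in BCR::ABL1- and 0.955 to 1.31 (median 1.12) in BCR::ABL1+, a log2 difference of -0.52 (adjusted p = 0.00309, exact permutation). That of Idh3a to Idh3g was 0.753 to 0.824 (median 0.789) in BCR::ABL1- and 1.13 to 1.47 (median 1.25) in BCR::ABL1+, a log2 difference of 0.67 (adjusted p = 0.00309, exact permutation). In each of these 3 pairs the groups did not overlap, and the unadjusted p of 0.00216 was the smallest that this number of libraries can give.

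Differences without overlap and with the same adjusted p were found for Acads to Acadvl (log2 difference 0.48), Acadl to Acadm (0.30) and Pdha1 to Pdhb (-0.31), among others. Cpt1a to Cpt2 was 13.1 to 14.4 (median 13.8) in BCR::ABL1- and 7.6 to 13.9 (median 10.8) in BCR::ABL1+, with overlap (log2 difference -0.35, adjusted p = 0.0189, exact permutation). Mdh1 to Mdh2 (-0.089, adjusted p = 0.089, exact permutation) and Etfa to Etfb (-0.019, adjusted p = 0.734, exact permutation) did not pass, although the first did without BCR::ABL1+ replicate 4 or 6 (adjusted p = 0.0481 in either case, exact permutation). In 7 of the 8 pairs that passed, the gene with the shorter transcript was the one relatively higher in BCR::ABL1+, and Idh3a to Idh3g was the exception. With the length trend subtracted, 6 pairs passed. Pdha1 to Pdhb (-0.046, adjusted p = 0.37, exact permutation) and Cpt1a to Cpt2 (-0.13, adjusted p = 0.431, exact permutation) no longer did, and Hadha to Hadhb stood at -0.56 and Suclg2 to Sucla2 at -0.36.

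**Figure D4:**
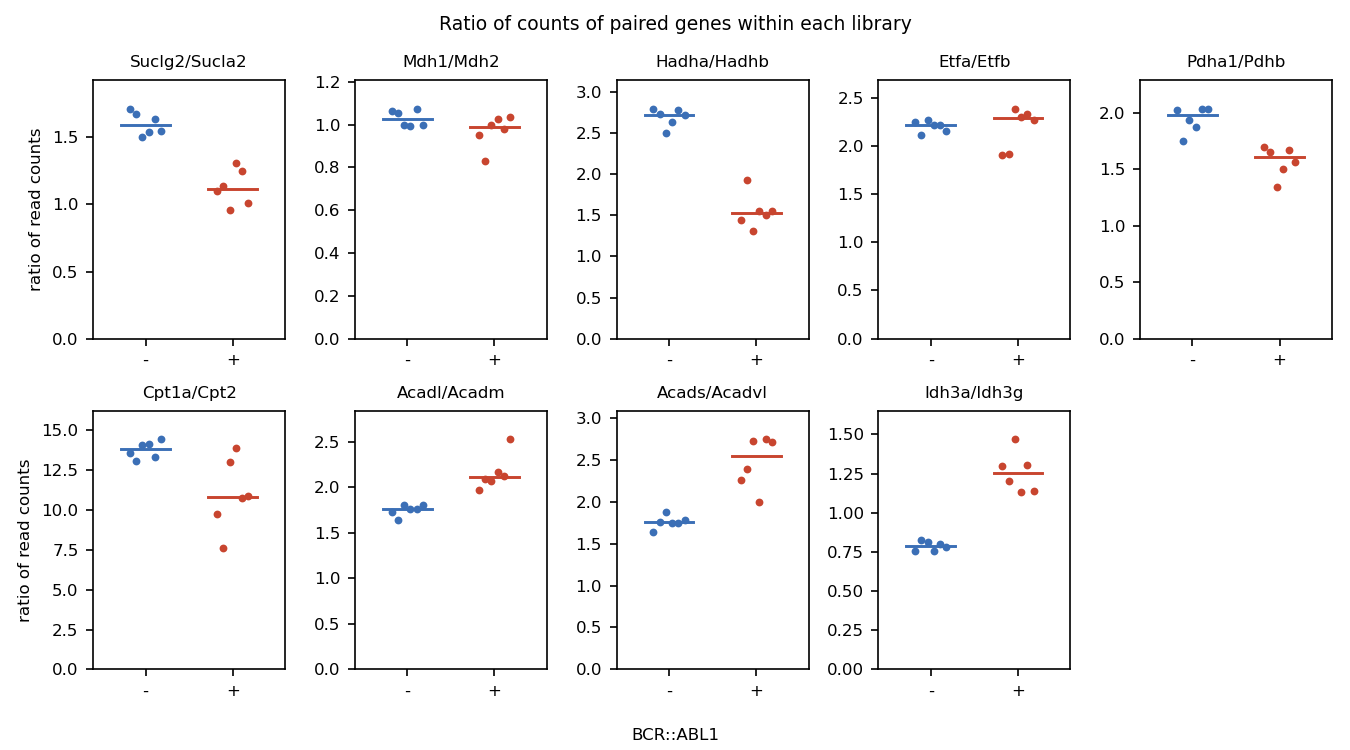
Ratio of read counts of 2 genes in each library (y axes start at 0, a point per library, line at the group median, n = 6 per group) for 9 of the 10 pairs. In Hadha/Hadhb, Suclg2/Sucla2 and Pdha1/Pdhb all BCR::ABL1+ points lie below all BCR::ABL1- points, in Idh3a/Idh3g, Acads/Acadvl and Acadl/Acadm all lie above, and in Mdh1/Mdh2, Etfa/Etfb and Cpt1a/Cpt2 the groups overlap.

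Within groups, libraries were ordered alike across the members. BCR::ABL1- replicate 2 had the lowest CPM of its group for 28 of 34 genes. It also had the highest TMM factor of that group (1.04) and its highest share of mitochondrially encoded mRNAs (1.2%). BCR::ABL1- replicate 4, with a share of 1.17%, was lowest for 3 genes. In the BCR::ABL1+ group, replicate 6 was highest for 20 genes and replicate 5 lowest for 20, and these 2 libraries had the lowest and highest TMM factors of the group (0.927 and 1.07). The standard deviation of log2 CPM was larger among BCR::ABL1+ libraries for 32 of 34 members (94.1%), with medians of 0.0994 in BCR::ABL1- and 0.175 in BCR::ABL1+, and this was so for 91.6% of all genes tested. Without BCR::ABL1+ replicates 2 and 4, the libraries high in stromal markers, 17 members were higher and 5 lower.

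Counts of 6 members are uncertain, because over 10% of the 50-base words of their transcripts also occur in transcripts of other genes, and whether strand was used in counting is not given in the sources used here. They are Etfb (44.8%, mostly the overlapping Gm45233), Acadvl (26.9%, Dvl2 on the opposite strand), Hadhb (19.7%), Suclg2 (16%), Pdha1 (12.9%) and Pdhb (11.4%). For Echs1 the share was 5.47%, and for Fh1 and Idh3a it was 0. 

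Of 22 further genes of the TCA cycle and its carriers, 20 were tested, with 6 higher and 8 lower (median log2 fold change 0.073), where 30.6% of all genes tested were higher and 29% lower. Among genes at or above the level of the lowest member these shares were 29.7% and 44.9%. The 8 lower genes were Sdha, Acly, Pck2, Dhtkd1, D2hgdh, Slc25a1, Slc25a10 and Slc25a11. Under upper-quartile scaling 8 were higher and 5 lower. With the length trend removed, 7 were higher and 4 lower. Succinate dehydrogenase, which is also complex II of the respiratory chain, rose in its membrane anchor Sdhd, at 87 to 103 CPM (median 94.6) in BCR::ABL1- and at 165 to 242 CPM (median 205) in BCR::ABL1+ (log2 fold change 1.10, SE 0.0861, adjusted p = 1.38e-07). The iron-sulphur subunit Sdhb (0.52, SE 0.0971, adjusted p = 0.000357) and the anchor Sdhc (0.29, SE 0.0939, adjusted p = 0.0156) were higher, and the flavoprotein subunit Sdha was lower (-0.40, SE 0.0754, adjusted p = 0.000342). The calls of Sdhb (with the length trend removed, adjusted p = 0.0917) and Sdhc (without replicate 6 of both groups, adjusted p = 0.0592) did not hold throughout. The cytosolic isocitrate dehydrogenase Idh1 lay at 27.8 to 34.2 CPM (median 33.1) in BCR::ABL1- and at 50.4 to 83.2 CPM (median 68.7) in BCR::ABL1+ (1.04, SE 0.114, adjusted p = 2.65e-06), and the aspartate-glutamate carrier Slc25a13 had a log2 fold change of 0.64 (SE 0.0689, adjusted p = 2.17e-06). The mitochondrial isocitrate dehydrogenase Idh2 (0.041, adjusted p = 0.678) was not called.

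Of 13 genes of pyruvate entry and the regulation of pyruvate dehydrogenase, 7 were higher and 3 lower (median log2 fold change 0.34). The shares over all genes tested were 30.6% higher and 29% lower. Mpc1, a subunit of the mitochondrial pyruvate carrier, lay at 12.7 to 15.7 CPM (median 14.3) in BCR::ABL1- and at 26.4 to 46.5 CPM (median 33) in BCR::ABL1+ (log2 fold change 1.30, SE 0.122, adjusted p = 5.96e-07). Lipoic acid synthase Lias, which makes the cofactor of the pyruvate and 2-oxoglutarate complexes, lay at 21.6 to 27.9 CPM (median 25.9) in BCR::ABL1- and at 44.5 to 55.2 CPM (median 51.3) in BCR::ABL1+ (1.00, SE 0.0739, adjusted p = 8.67e-08). Pdk2, a kinase that inhibits the pyruvate dehydrogenase complex, lay at 13.4 to 16.3 CPM (median 15.2) in BCR::ABL1- and at 3.55 to 8.13 CPM (median 6.24) in BCR::ABL1+, and its groups did not overlap (log2 fold change -1.36, SE 0.176, adjusted p = 1.16e-05). The sister kinases Pdk1 and Pdk3, named after their values were seen, stood at higher levels and moved less. Pdk1 had medians of 154 CPM in BCR::ABL1- and 164 CPM in BCR::ABL1+ and was not called (0.19, adjusted p = 0.101). Pdk3 had medians of 69.9 and 61.4 CPM and was lower (-0.20, adjusted p = 0.0163). Pdhx, which binds Dld into the complex, was higher (0.57, SE 0.0946, adjusted p = 0.000112).

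Of 38 tested genes of fatty acid uptake, activation and other oxidation steps, 13 were higher and 12 lower (median -0.096), close to the 30.6% and 29% over all genes tested. Cd36, a fatty acid transporter of the cell surface, was at 4.35 to 8.49 CPM (median 6.98) in BCR::ABL1- and at 0.397 to 8.63 CPM (median 1.1) in BCR::ABL1+, where replicate 6 lay above every BCR::ABL1- library and the other 5 below every one (log2 fold change -1.58, SE 0.601, adjusted p = 0.0342). That call was lost in 7 of 12 fits that left out a single library (BCR::ABL1- replicates 1, 2 and 3 and BCR::ABL1+ replicates 1, 3, 4 and 5), with adjusted p up to 0.0677, and without BCR::ABL1+ replicate 6 the log2 fold change was -2.78. Acot13, an acyl-CoA thioesterase, lay at 8.94 to 11 CPM (median 10.1) in BCR::ABL1- and at 16.6 to 24.9 CPM (median 20.2) in BCR::ABL1+ (log2 fold change 0.99, SE 0.111, adjusted p = 3.08e-06), and its value was 0.55 with the length trend removed. Named after their values were seen, the peroxisomal oxidase Acox3 (-0.58) and the peroxisomal multifunctional enzyme Hsd17b4 (-0.68) were lower, both without overlap. Other peroxisomal enzymes of the list did not share this fall. Crot (0.37) and Eci2 (0.52) were higher without overlap, and Acaa1a (-0.051) and Decr2 (-0.18) were not called.

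**Figure D5:**
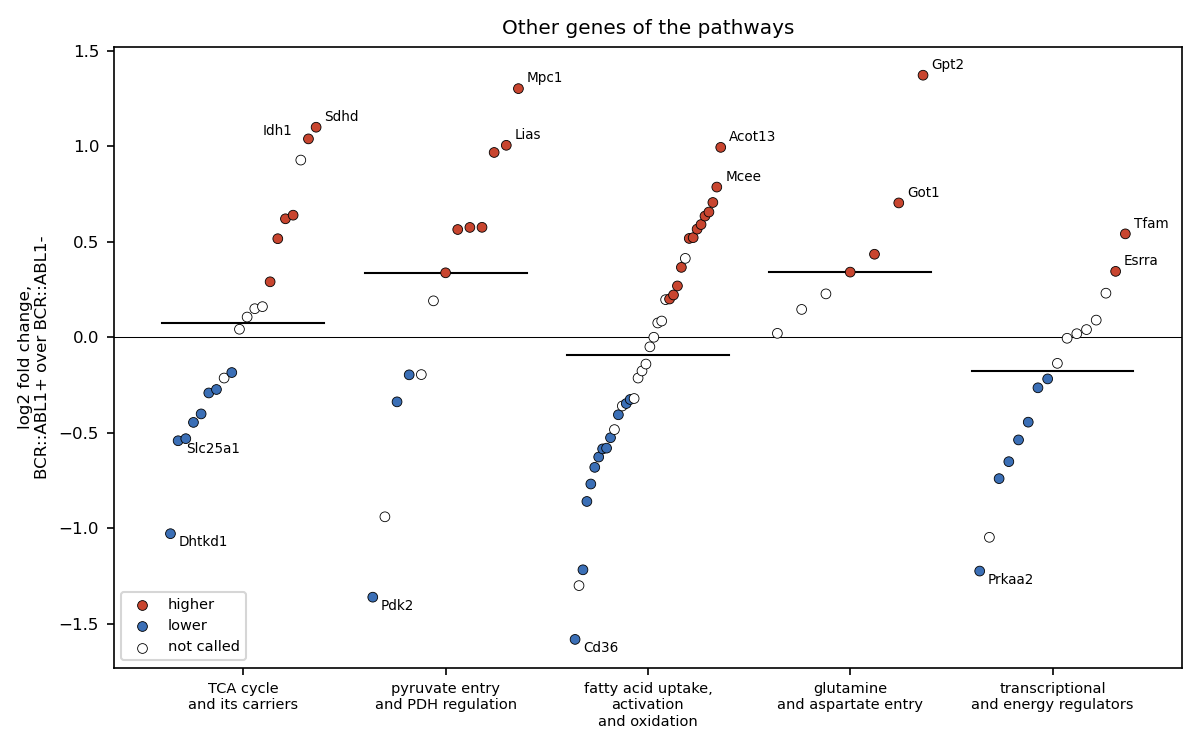
log2 fold change (BCR::ABL1+ over BCR::ABL1-) of the genes tested in 5 lists of other pathway genes, a point per gene in rising order (red higher, blue lower, white not called at an adjusted p under 0.05), with a line at the median of each list. The medians are 0.073, 0.34, -0.096, 0.34 and -0.18 from left to right, with Mpc1 and Gpt2 at the top and Cd36 and Pdk2 at the bottom.

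Glutamine and aspartate feed the cycle as 2-oxoglutarate and oxaloacetate. Of 7 genes of this entry 4 were higher and 0 lower by edgeR's adjusted p (median 0.34). The counts were the same at an unadjusted p under 0.05 and by DESeq2. Over all genes tested, edgeR called 30.6% higher and 29% lower. The transaminase Gpt2 had a log2 fold change of 1.37 (SE 0.453, adjusted p = 0.0172), where BCR::ABL1+ replicate 6 stood at 41.8 CPM and no other library was above 11 CPM. Without that library the log2 fold change was 0.53, and the call was lost without replicate 6 of both groups (0.53, adjusted p = 0.0544). The cytosolic aspartate transaminase Got1 (0.70, SE 0.118, adjusted p = 0.000133) and glutamate dehydrogenase Glud1 (0.43, SE 0.0791, adjusted p = 0.000272) were higher without overlap.

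Of 16 regulators tested, 2 were higher and 7 lower (median -0.18). Under upper-quartile scaling 3 were higher and 6 lower, and with the length trend removed 3 and 5. Of all genes tested, 30.6% were higher and 29% lower. Among genes at or above the level of the lowest member these shares were 29.7% and 44.9%. The genes of the catalytic subunits of AMP-activated kinase differed in level. Prkaa1, named after its values were seen, lay at 65.3 to 76.3 CPM in BCR::ABL1- and at 56.4 to 77.1 CPM in BCR::ABL1+, with overlap. Prkaa2, a catalytic subunit of AMP-activated kinase, was low in both groups, at 4.38 to 7.57 CPM (median 6.25) and 1.59 to 3.89 CPM (median 2.36), with a log2 fold change of -1.22, SE 0.21, adjusted p = 0.000157. Stk11, the kinase LKB1 that activates it, lay at 120.3 to 134 CPM (median 125) against 66.7 to 81.2 CPM (median 78.7), with one of -0.74, SE 0.0641, adjusted p = 3.07e-07, and the coactivator Pprc1 was lower too (-0.65, SE 0.0889, adjusted p = 1.93e-05, and -0.37 with the length trend removed). Esrra, a nuclear receptor for mitochondrial genes, and Tfam, a transcription and packaging factor of mitochondrial DNA, were the 2 higher ones, at 0.34 and 0.54, and were named after their values were seen. Ppara, the fatty acid-sensing nuclear receptor, did not pass the filter on low counts and stayed at or below 0.342 CPM in every library.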

How the data were processed

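Bulk RNA-seq of 12 LSK libraries was analysed. The authors deposited raw read counts per Ensembl mouse gene for each library, without normalization. Per the labels, reads were processed with FastQC 0.11.9, fastp 0.23.2, STAR 2.7.10a, featureCounts 2.0.1 and DESeq2 1.36.0 on GRCm39 (the submitters' processing notes), whereas the methods of the study name Trim Galore!, HISAT2 and hg38 for bulk RNA-seq. The annotation release, strand setting and handling of multi-mapping reads are not given in the sources used here. Counts of overlapping genes and of genes with near-identical copies are affected by these settings.

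Symbols were matched by identifier (52073 of 56748 matched), and 0 entries named no gene. Counts were fitted with edgeR 4.0.16 in R 4.3.3 (TMM factors, filterByExpr, quasi-likelihood test, 18438 genes, Benjamini-Hochberg adjustment over all of them, threshold 0.05). CPM are TMM-scaled, and log2 CPM used a prior count of 2. Ratios used a prior count of 0.5 and exact permutation in Python 3.11.15 (numpy 2.4.6, pandas 2.3.3, matplotlib 3.10.9, scipy 1.17.1). Transcript length is that of the principal transcript in a GENCODE annotation of GRCm38, used for length and shared sequence only. DESeq2 1.42.0, other scalings, no filter, a replicate block, a threshold of 0.01 and left-out libraries were alternatives. Removal of the length trend and leaving out BCR::ABL1+ replicates 2 and 4 were chosen after seeing the data. The members, the other lists and the ratios were chosen with earlier results of these data known. Full values are given for the 2 genes of each step with the largest absolute log2 fold change among those called (or, where fewer were called, the smallest adjusted p), and for the 3 largest called changes of each other list at a mean log2 CPM of at least 1, with Idh2, the 4 Sdh genes and Pdhx. Some results that this rule or the ratios would name are not reported here. Promoter sequences are from RefSeq (GRCm38.p6), and Decr1, Idh3a and Acaa2 are not among those used here.

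Libraries held about 16150800 to 41832900 counts. Standard errors are those of the quasi-likelihood fit, which takes in the spread between libraries as well as counting error. No 2 libraries agreed within sampling noise (lowest chi-square per degree of freedom 3.78). On data simulated for this comparison with 18297 genes, edgeR called 22 of 100 genes changed by 0.5 and 99 of 100 changed by 1 on the log2 scale, and 11 of 18097 unchanged genes. The simulation gave every gene the same dispersion, which was not that of the members, so these rates need not hold for them. In the data, 10 members were called with changes within 0.5 on the log2 scale.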

Additional observations from a re-analysis of the deposited data

Results flagged for a closer look

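One value stood apart from its group by Dixon's criterion for 6 libraries. The ratio of Acadl to Acadm counts in BCR::ABL1+ replicate 6 was 2.53, where the next highest of the group was 2.17. Over the 34 genes and 10 ratios in both groups, 88 sets of 6 values were examined, of which chance would mark about 4.4 (1 in 20), and 1 was marked. Without this library the ratio still differed between groups (the range over all fits that left out 1 library was 0.25 to 0.33 on the log2 scale).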

How the results depend on the processing

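Over 20 alternative settings, 20 of the 21 called members kept their call in all but the length setting, in which Mdh2 lost it, and Idh3g lost its call in 4. No called member other than Idh3g with the length trend removed (-0.0078) changed sign. The number of members called higher was 22 under upper-quartile factors, 16 without a filter on low counts and 17 with DESeq2, and 4, 5 and 4 were lower. At a threshold of 0.01, 16 were higher and 3 lower. Leaving out 1 library at a time gave 16 to 20 higher, 4 to 5 lower, a median log2 fold change of 0.17 to 0.31 and 8 to 9 ratios past the threshold. In such fits calls were gained by Dlat (without BCR::ABL1+ replicate 4 or 5), Slc25a20 (2 or 5), Eci1 (5) and Acadvl (BCR::ABL1+ replicate 4 or BCR::ABL1- replicate 2). Without replicate 6 of both groups, whose library numbers stand apart, 16 were higher and 4 lower, 7 ratios passed, and Cpt1a to Cpt2 did not (adjusted p = 0.0617). Replicate numbers did not pair the libraries (correlations of same-numbered libraries -0.125 to 0.0679), and the fit with a replicate block called 17 members higher and 4 lower with a median of 0.24, kept every call of the members but not that of Gpt2 (0.88, adjusted p = 0.0597 by edgeR), and gave 8 ratios past the threshold by sign-flip over 6 pairs. Values that were not called changed sign for Cs (0.018 with upper-quartile factors and 0.0088 with the length trend removed), Hadha (0.030, 0.13, and -0.096 to 0.0082 over fits without 1 library, positive without BCR::ABL1+ replicate 3), and Acadm (-0.030 without a filter and with the length trend removed, and -0.0066 to 0.070 over fits without 1 library, negative without BCR::ABL1+ replicate 1). Without a filter, Idh3b was -0.0024 and Dlst -0.0047. With the length trend removed, Aco1 was 0.021, Idh3b -0.11, Eci1 -0.082, Mdh1 to Mdh2 0.078 and Etfa to Etfb 0.12, and the last went from -0.045 to 0.020 over fits without 1 library, with 0.020 and 0.017 where BCR::ABL1+ replicate 1 or replicate 2 was absent. The cause was not tested. Depth limits Cpt2 most, with as few as 204 counts in a library, and a gene that was not called may still differ.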

Other observations

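The mitochondrially encoded mRNAs, which specify respiratory chain subunits, were also measured. Of 13 such genes 8 were tested and 6 were higher, where 30.6% of all genes tested were. Their median log2 fold change was 1.12 over the 8, and the 2 others, mt-Nd3 (0.35) and mt-Nd6 (-0.39), were not called by edgeR. For mt-Co1, a subunit of cytochrome c oxidase, CPM were 3509 to 5236 in BCR::ABL1- and 11515 to 14720.0 in BCR::ABL1+. The other 5, mt-Nd4l, mt-Co2, mt-Co3, mt-Atp6 and mt-Atp8, were at or below 0.597 CPM in every library of both groups, so the shares of mitochondrial mRNA given above leave them out in effect.

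Chosen after their values were seen, the genes that turn propionyl-CoA from odd-chain fatty acids and branched amino acids into succinyl-CoA were all 4 higher, where 30.6% of all genes tested were: Pcca (0.59, SE 0.083, adjusted p = 2.62e-05), Pccb (0.27, SE 0.0778, adjusted p = 0.00832), Mcee (0.79, SE 0.131, adjusted p = 0.000125) and the mutase Mmut (0.70, SE 0.102, adjusted p = 3.39e-05), as log2 fold changes. The value of Mcee was 0.37 with the length trend removed. The call of Pccb was lost without a filter on low counts (0.2, adjusted p = 0.0681).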
